A study of Homo sapiens with 24 samples.

Results

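The genes described here are those carried by the mitochondrial genome. They were chosen by position, as every row placed on the mitochondrial chromosome in the deposited tables, and no expression value entered the choice. This gave 13 of 48162 genes. All 13 are protein-coding genes of 1 exon, and their identifiers and positions are the same in GENCODE 29. No ribosomal or transfer RNA gene of this chromosome is among these rows, so such genes were not analysed here. The mitochondrial shares of reads below leave their reads out.

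The study asked what extracellular vesicles (EV) shed by pancreatic cancer lines do to normal pancreas cells, and measured RNA-seq in 24 libraries, 8 groups of 3. The recipient lines were hTERT-HPNE (HPNE), immortalised with the telomerase gene TERT, and HPDE-H6c7 (HPDE), an immortalised duct epithelial line. Both were grown in a 24-well plate in keratinocyte serum-free medium with penicillin-streptomycin and then kept for 24 h in 1 of 4 ways. The untreated group received fresh serum-free medium, and the negative control received the residual medium that remained after vesicle isolation. The other groups received 1e10 EV per well, from PANC-1 cells or from PPCL-68 cells. Each line is a single immortalised line, so lines and not donors were compared. The design text calls the triplicates biological, but no label ties a replicate to a separate culture, so p-values measure only the spread between these samples.

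The mitochondrial genome is a small circular DNA inside the organelle. It encodes core subunits of 4 of the machines of oxidative phosphorylation. Complex I feeds electrons from NADH into the respiratory chain, complex III passes them on, complex IV gives them to oxygen, and complex V makes ATP from the resulting proton gradient. A dedicated RNA polymerase, POLRMT, working with the DNA-packaging factor TFAM, copies each strand as a long precursor that is cut into single messages. The many other subunits of the same complexes are encoded in the nucleus and imported.

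Between 29209142 and 46490312 reads were assigned to genes per library, and 19797 to 23310 genes had a read. In HPNE, 1 library of each group stood apart from the other pair: untreated replicate 3, residual replicate 3, PANC-1 EV replicate 1 and PPCL-68 EV replicate 1. Its mean distance from that pair was 2.05 to 3.31 times the distance within the pair, against 1.08 to 1.24 times in HPDE. HPNE results are therefore given with and without these 4 libraries. The 4 were picked from these same expression values, and leaving them out keeps the closest pair of each group. The SE and p-values of such fits understate the spread between replicates, and their counts are not independent support. The libraries kept also deviated in opposite ways. Over all genes tested, deviations from the group means in untreated replicates 1 and 2 ran against those in same-numbered residual libraries (correlations -0.392 and -0.393). For replicate 2 of PANC-1 EV and PPCL-68 EV against untreated replicate 2 they were -0.443 and -0.368. In these fits, treatment and this split cannot be told apart in comparisons with untreated HPNE. Line markers matched the labels: EPCAM, an epithelial surface protein, was at 0.162 FPKM or less in HPNE and at 148 to 192 in HPDE, while TERT was at 114 to 443 in HPNE and at 1.10 to 3.00 in HPDE. FPKM is the number of reads scaled to the length of the gene and to the total of assigned reads. It is a share of the library, and in bulk RNA fewer cells of a type and less RNA per cell cannot be told apart.

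Along the chromosome, the complex I genes MT-ND1 (positions 3307 to 4262) and MT-ND2 (4470 to 5511) come first. They are followed by the complex IV genes MT-CO1 (5904 to 7445) and MT-CO2 (7586 to 8269), and by the complex V genes MT-ATP8 (8366 to 8572) and MT-ATP6 (8527 to 9207). MT-CO3 of complex IV lies at 9207 to 9990, and complex I resumes with MT-ND3 (10059 to 10404), MT-ND4L (10470 to 10766), MT-ND4 (10760 to 12137), MT-ND5 (12337 to 14148) and MT-ND6 (14149 to 14673). MT-CYB, the cytochrome b gene of complex III, ends the series at 14747 to 15887. MT-ND6 lies on the minus strand and the other 12 on the plus strand. Its message reads 35.6% G and 7.05% C, whereas each of the other 12 has more C than G. The library kit kept no strand, so reads of MT-ND6 and of RNA antisense to it cannot be told apart. In 6 of the 13 genes the annotated length is not a multiple of 3, the known form of mitochondrial messages whose stop codon is completed by the poly(A) tail.

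Neighbouring genes share bases at 3 places: MT-ATP8 and MT-ATP6 share 46, MT-ND4L and MT-ND4 share 7, and MT-ATP6 and MT-CO3 share 1. The first pair is shown because it sets apart the only gene with almost no reads. The sequences are GENCODE 29 transcripts (GRCh38). Capitals mark the bases that MT-ATP8 shares with MT-ATP6, the bases at which the nuclear copy MTATP8P1 (chromosome 1, 568915 to 569121, hg19) differs from MT-ATP8, and the bases shared by MT-ND4L and MT-ND4.
MT-ATP8: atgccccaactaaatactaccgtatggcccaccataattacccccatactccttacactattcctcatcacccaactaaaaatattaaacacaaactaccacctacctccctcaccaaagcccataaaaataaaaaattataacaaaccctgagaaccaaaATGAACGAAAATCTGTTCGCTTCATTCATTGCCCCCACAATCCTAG
MTATP8P1: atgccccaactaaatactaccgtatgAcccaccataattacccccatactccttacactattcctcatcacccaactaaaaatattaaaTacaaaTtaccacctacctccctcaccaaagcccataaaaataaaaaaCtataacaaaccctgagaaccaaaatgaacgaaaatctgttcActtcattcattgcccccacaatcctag
MT-ND4L end into MT-ND4: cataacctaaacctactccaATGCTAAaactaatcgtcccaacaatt

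MT-ATP8, a small subunit of ATP synthase, is 207 bases long and differs from its nuclear copy at 5 bases, an identity of 97.6%. Its reads numbered 11, 17 and 6 in the untreated HPNE libraries and 15, 7 and 1 in the untreated HPDE libraries. Over all 24 libraries it had 0 to 17 reads and exceeded the floor of 3 reads in 15. MT-ATP6, the proton channel subunit carried on the same message, was at 648 to 1701 FPKM in the untreated HPNE libraries, where MT-ATP8 was at 0.759 to 2.62. How the deposited counts treat reads in shared bases, or reads that match a nuclear copy, is not given in the sources used here, and its part in the low MT-ATP8 value was not tested. MT-ATP8 passed the filter on low values, a mean of 1 FPKM over the libraries of a line, in HPNE (1.06 FPKM) but not in HPDE (0.565 FPKM). Its untreated HPNE libraries, with a mean of 1.70 FPKM, lifted it over that filter. Its tests against untreated HPNE are therefore no support, and they rest on few reads. The other 12 genes passed in both lines.

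Nuclear copies were also compared by exact sequence. In MT-CO1, 49.5% of all windows of 50 bases also occur in another transcript, in MT-ATP6 46.7% and in MT-ND2 43.6%. The read length is not given in the sources used here, and with windows of 100 bases these shares were 27.9, 11.9 and 26.1%, with 150 bases 14.5, 0 and 15.7%. In MT-CYB the share at 50 bases was 1.19%, and MT-ND3 and MT-ND4L had no such window. The longest shared runs were 266 bases between MT-ND2 and MTND2P28, 245 between MT-CO1 and MTCO1P12, and 141 between MT-ATP6 and MTATP6P1. Of 403 nuclear copies in the tables, 367 had at most 3 reads in all 24 libraries and 3 had more than 100 in any library, namely MTATP6P1, MTCO1P12 and MTND2P28. All copies together held reads equal to 0.223 to 0.378% of the mitochondrial reads. How many reads of MT-CO1, MT-ATP6 and MT-ND2 were assigned to copies or dropped was not tested.

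The 2 lines differed in the order of their mitochondrial messages. MT-CO1, the catalytic subunit of complex IV, was the highest of the 13 in 12 of 12 HPNE libraries, at 4969.9 ± 1973 FPKM in untreated cells (SD, n = 3). MT-CO2, the subunit that receives electrons from cytochrome c, was the highest in 12 of 12 HPDE libraries, at 3308 ± 696 FPKM in untreated cells (SD, n = 3). In untreated HPNE the next genes were MT-CO2 (2619 ± 898), MT-CO3 (2263 ± 881) and MT-ND4 (1452 ± 591), in that order in all 12 libraries of the line. MT-CYB (1264 ± 491), MT-ATP6 (1255 ± 545), MT-ND1 (1219.9 ± 562) and MT-ND2 (1128 ± 358) followed within their spread, with MT-CYB above MT-ATP6 in 6 of the 12 libraries. MT-ND3 (752 ± 216), MT-ND5 (732 ± 261) and MT-ND6 (717 ± 313) formed a further cluster with overlapping ranges. Within libraries, MT-ND3 lay above MT-ND5 in 10 of the 12, and MT-ND5 above MT-ND6 in 10. MT-ND4L (243 ± 124) ranked below these in all 12 libraries.

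In untreated HPDE, MT-CO2 did not overlap the next gene, MT-ND4 (1319.5 ± 289 FPKM), a proton-pumping subunit of complex I. MT-CO1 (1093 ± 213), MT-CO3 (1029 ± 215), MT-ND1 (959 ± 184) and MT-ND2 (879 ± 136) followed with overlapping ranges, but in that order within each untreated library. Over the 12 HPDE libraries, MT-CO1 lay above MT-CO3 in 6 and MT-CO3 above MT-ND1 in 6. MT-ATP6 (684 ± 109) lay below them in rank and did not overlap MT-CYB (453 ± 88), which in turn did not overlap MT-ND3 (354 ± 22.9). MT-ND4L (298 ± 85.7), MT-ND5 (295 ± 54.1) and MT-ND6 (223 ± 31) closed the order, and these neighbours overlapped. Within the 12 HPDE libraries, MT-ND4L lay above MT-ND5 in 4 and MT-ND5 above MT-ND6 in 11. All ± values are SD over 3 libraries. FPKM levels of the 12 genes with substantial reads are plotted in genome order.

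**Figure D1:**
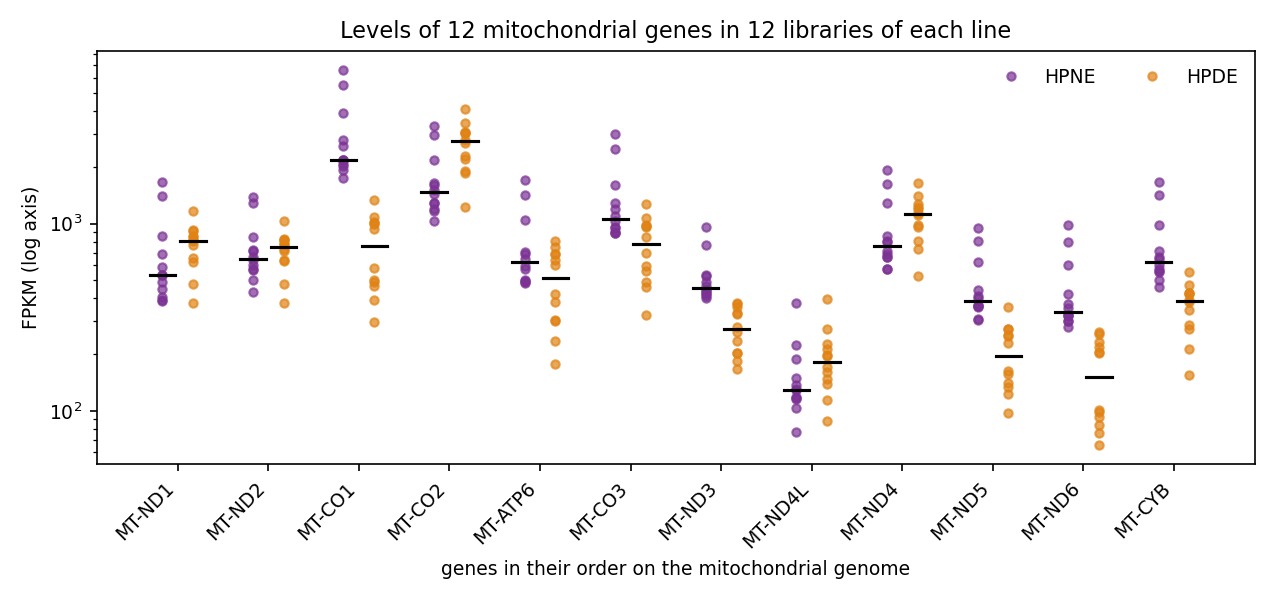
FPKM (log axis) of 12 mitochondrial genes in genome order, with 12 points per line for the libraries and a black bar at their median; MT-ATP8 is not plotted. HPNE points lie highest at MT-CO1 and HPDE points at MT-CO2.

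Of the 12 genes tested, 7 were lower in untreated HPDE than in untreated HPNE, where 27.7% of the 12377 genes tested were called lower and 56% higher. The test was limma on log2(FPKM + 1) with Benjamini-Hochberg adjustment over all genes tested, and a gene was called at an adjusted p under 0.05. MT-CO1 stood at 5483, 6636 and 2791 FPKM in the untreated HPNE libraries and at 932, 1335 and 1013 in the untreated HPDE libraries. The groups did not overlap, and the difference was -2.11 ± 0.26 (log2 ± SE, limma adjusted p = 3.16e-07). MT-ND6, the complex I subunit of the opposite strand, differed by -1.58 ± 0.28 and MT-CYB by -1.41 ± 0.27. MT-ND5, another proton-pumping subunit, differed by -1.25 ± 0.25, MT-CO3 by -1.07 ± 0.27, MT-ND3 by -1.04 ± 0.16 and MT-ATP6 by -0.77 ± 0.30, with limma adjusted p from 3.35e-05 to 0.0232 for these 6 genes.

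MT-ND1, MT-ND2, MT-CO2, MT-ND4L and MT-ND4 did not pass the test between the untreated lines, with differences of -0.31 to 0.39. Without the 4 HPNE libraries that stand apart, 10 of the 12 were lower, with MT-ND1 at -0.69, MT-ND2 at -0.61 and MT-ND4 at -0.45 added (limma adjusted p = 0.000988, 0.0014 and 0.0464), where 29.9% of all genes tested were called lower. With all libraries, the median over the 12 genes was -0.91, against 0.38 over all genes tested. With size factors in place of the library total, the median of all genes moved to 0.07 and that of the mitochondrial genes to -1.27. Of the mitochondrial genes 8 were called, and the share of all genes called in that setting is not given here. In contrast to the mitochondrial genes, 61 of 72 nuclear-encoded subunits of oxidative phosphorylation were higher in HPDE and 5 lower (median 0.71). Of all genes tested, 56% were called higher and 27.7% lower. TFAM was at 29.7 ± 1.23 FPKM in untreated HPDE and 5.24 ± 0.242 in untreated HPNE (SD, n = 3), a difference of 2.30 ± 0.09 (limma adjusted p = 2.37e-15). The polymerase POLRMT differed less, by 0.30 ± 0.09 (limma adjusted p = 0.0027).

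As a share of all assigned reads, mitochondrial genes made up 2.21, 2.63 and 1.13% in the untreated HPNE libraries. The share was 0.982, 0.879 and 0.746% with residual medium, 1.57, 0.810 and 0.909% after PANC-1 EV and 1.09, 0.891 and 0.909% after PPCL-68 EV. Untreated HPNE libraries were thus above every residual and PPCL-68 EV library, while PANC-1 EV replicate 1 lay above the lowest untreated library. In HPDE the shares were 0.872, 1.25 and 0.951% untreated, 0.929, 0.944 and 1.04% with residual medium, 0.635, 0.499 and 0.362% after PANC-1 EV and 0.775, 0.665 and 0.569% after PPCL-68 EV. Every HPDE library with vesicles was below every HPDE library without them, and the 2 vesicle groups overlapped. The Wilson 95% interval of the lowest share ran from 0.360 to 0.364%, which covers counting error only and is far narrower than the spread between replicates.

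**Figure D2:**
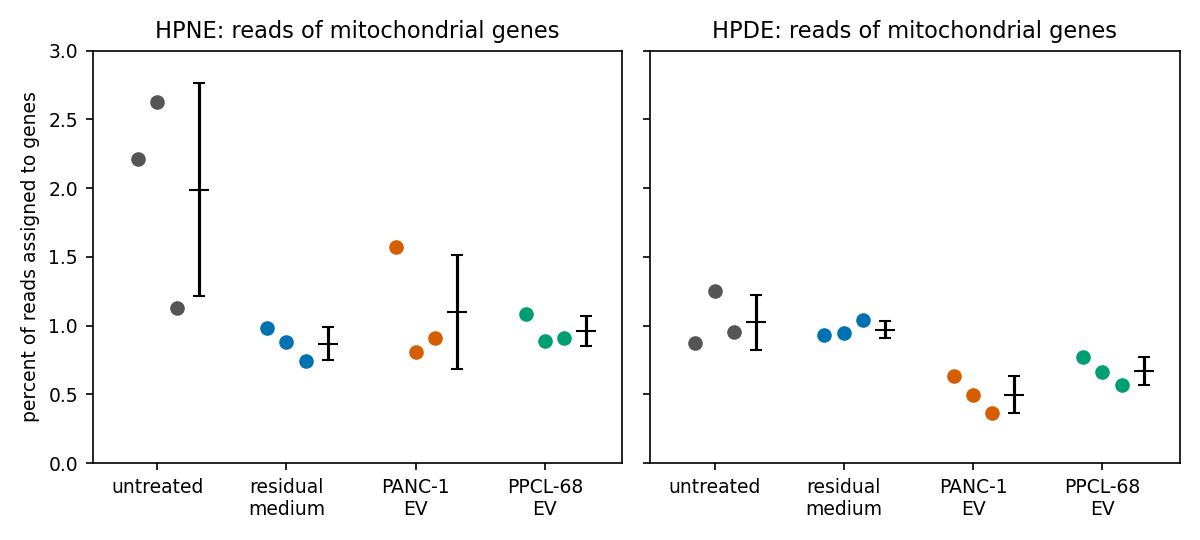
Percent of assigned reads that fall in mitochondrial genes, by treatment in HPNE (left) and HPDE (right); points are libraries and bars are the mean ± SD of 3. In HPDE the 6 vesicle libraries sit at 0.362 to 0.775%, below the 6 others at 0.872 to 1.25%; in HPNE the untreated group is highest and widest.

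In HPDE, PANC-1 vesicles were accompanied by lower levels of all 12 tested mitochondrial genes than residual medium, and no gene's groups overlapped. Of the 12223 genes tested, 35.1% were called lower in this comparison and 28.2% higher, and 36.9% were lower without overlap. The median difference was -0.93 over the 12 genes and -0.04 over all genes tested. With PPCL-68 vesicles 7 of the 12 genes fell, where 36.4% of all genes tested were called lower, and 9 were lower without overlap, where 37.3% of all genes were. The median was -0.50 over the 12 genes and -0.03 over all. The 2 vesicle comparisons share the 3 residual libraries.

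Among the complex IV genes, MT-CO1 in HPDE was at 1019, 995 and 1089.7 FPKM with residual medium, at 489, 389 and 297 after PANC-1 EV and at 579, 499 and 462 after PPCL-68 EV. All 6 vesicle libraries lay below all 3 residual libraries. The differences were -1.43 ± 0.15 after PANC-1 EV (limma adjusted p = 1.83e-06) and -1.01 ± 0.15 after PPCL-68 EV (limma adjusted p = 3.8e-05). MT-CO3, a structural subunit of the complex IV core, was at 977, 953 and 1073 FPKM with residual medium, 555, 461 and 326 after PANC-1 EV and 696, 597 and 489.8 after PPCL-68 EV. Again no library overlapped, and the differences were -1.19 ± 0.17 and -0.76 ± 0.17 (limma adjusted p = 3.65e-05 and 0.00136). MT-CO2 was at 3036, 3084 and 3446 FPKM with residual medium, 2286, 1905 and 1230.1 after PANC-1 EV and 2707, 2205 and 1855 after PPCL-68 EV. Its differences were the smallest of the 3 subunits, at -0.86 ± 0.20 and -0.51 ± 0.20 (limma adjusted p = 0.00143 and 0.0301).

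MT-ATP6 fell the most with PANC-1 vesicles. Its HPDE levels were 691, 685 and 747 FPKM with residual medium, 307, 237 and 177 after PANC-1 EV and 421, 382 and 300.0 after PPCL-68 EV. The residual libraries lay close together and above every vesicle library. The differences were -1.59 ± 0.16 after PANC-1 EV (limma adjusted p = 1.23e-06) and -0.96 ± 0.16 after PPCL-68 EV (limma adjusted p = 0.000122). The nuclear copy MTATP6P1 went from 27.4 ± 1.82 FPKM to 9.11 ± 1.80 and 14.4 ± 3.83 (SD, n = 3), with differences of -1.50 ± 0.16 and -0.91 ± 0.16. MT-ATP8 had 2, 2 and 4 reads with residual medium, 1, 2 and 0 after PANC-1 EV and 10, 0 and 2 after PPCL-68 EV, too few to compare.

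MT-ND6 was the gene on which the 2 kinds of vesicle differed least. It was at 232, 220.3 and 265 FPKM with residual medium, at 98.4, 83.9 and 65.4 after PANC-1 EV and at 93.1, 101 and 75.9 after PPCL-68 EV. The 2 vesicle groups overlapped with each other and not with residual medium. The differences were -1.54 ± 0.14 (limma adjusted p = 2.59e-07) and -1.41 ± 0.14 (limma adjusted p = 4.18e-07). MT-CYB was at 420.3, 424 and 472 FPKM with residual medium, 273, 215 and 155 after PANC-1 EV and 393, 345 and 289 after PPCL-68 EV. It fell by 1.06 ± 0.17 on the log2 scale with PANC-1 EV (limma adjusted p = 8.23e-05), while the difference of -0.37 ± 0.17 with PPCL-68 EV did not pass (limma adjusted p = 0.0706), although its libraries did not overlap those of residual medium.

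**Figure D3:**
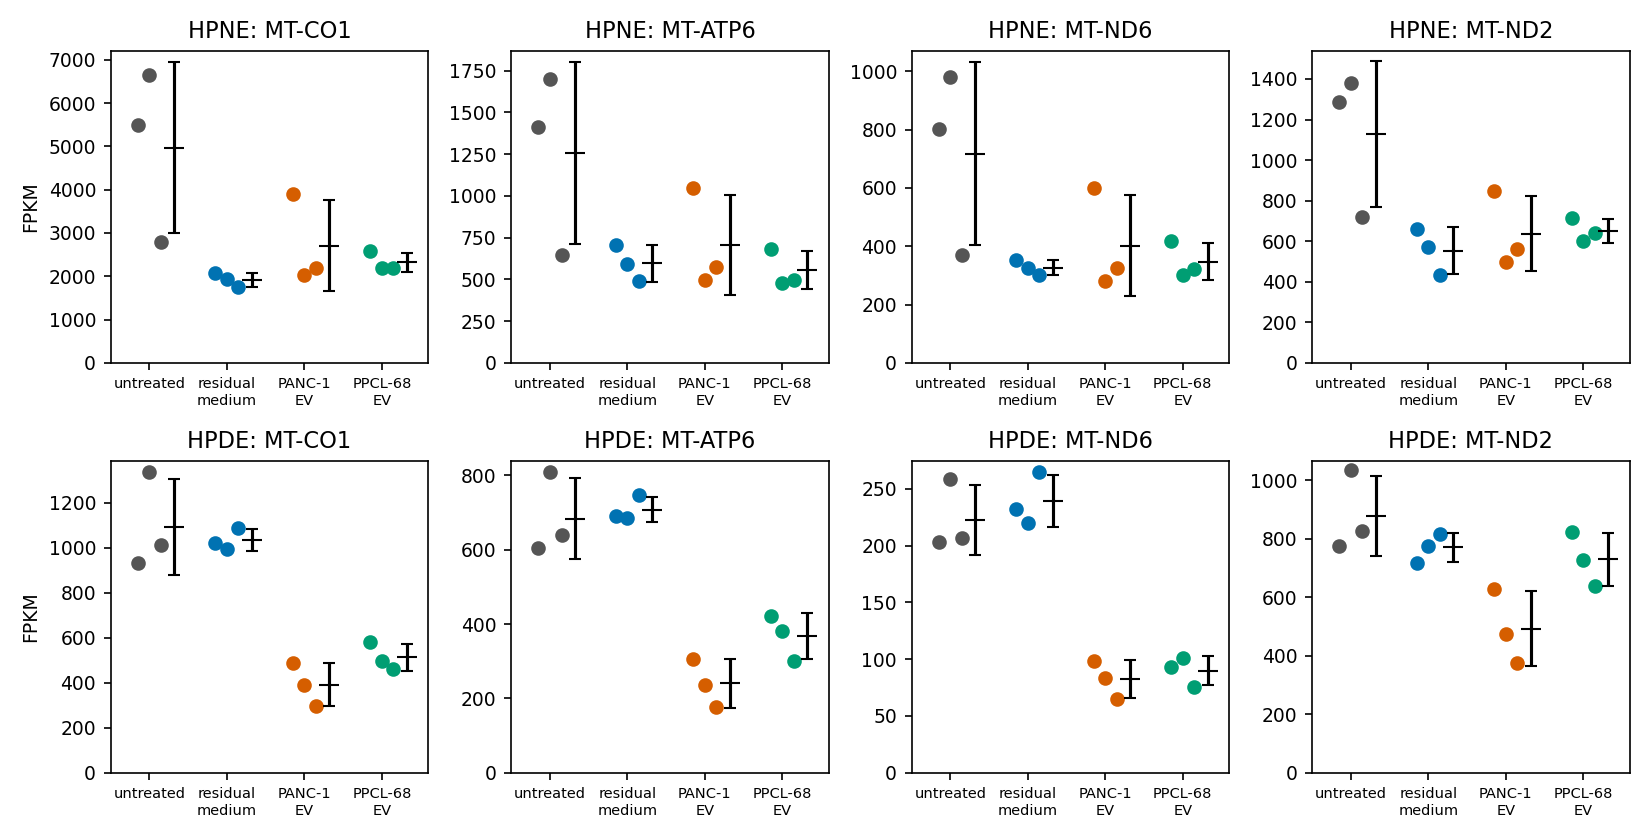
FPKM per library of MT-CO1, MT-ATP6, MT-ND6 and MT-ND2 in both lines by treatment, with the mean ± SD of 3 libraries; the y axes start at 0 and differ between panels. In HPDE all 4 genes are lower with PANC-1 EV, MT-ND6 is as low with PPCL-68 EV, and MT-ND2 with PPCL-68 EV stays at the level of residual medium.

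The other complex I genes fell in HPDE with PANC-1 vesicles by 0.67 to 1.0 on the log2 scale. MT-ND5 was at 231, 250.3 and 272 FPKM with residual medium, 162, 123 and 97.8 after PANC-1 EV and 158, 141 and 133 after PPCL-68 EV. Both vesicle groups were below residual medium in every library, by -1.0 ± 0.15 and -0.80 ± 0.15 (limma adjusted p = 4.43e-05 and 0.000269). MT-ND3, a small subunit at the junction of the membrane and matrix arms, was at 279, 333 and 374 FPKM with residual medium, 205, 184 and 168 after PANC-1 EV and 265, 235 and 203 after PPCL-68 EV. It did not overlap either, with differences of -0.82 ± 0.11 and -0.49 ± 0.11 (limma adjusted p = 1.33e-05 and 0.00103).

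The first complex I genes of the chromosome behaved differently between the vesicles. MT-ND1, at 848, 814 and 922 FPKM with residual medium, was at 626, 473 and 375 after PANC-1 EV and at 853, 770.3 and 656 after PPCL-68 EV. MT-ND2, at 718, 774 and 817 FPKM with residual medium, was at 628, 475 and 374 after PANC-1 EV and at 821, 727 and 638 after PPCL-68 EV. The PANC-1 libraries were lower in both genes, and the PPCL-68 libraries overlapped those of residual medium. The PANC-1 differences were -0.84 ± 0.16 and -0.67 ± 0.15 (limma adjusted p = 0.00037 and 0.00139). The PPCL-68 differences were -0.19 ± 0.16 and -0.08 ± 0.15 (limma adjusted p = 0.313 and 0.636). MT-ND4 and its overlapping neighbour MT-ND4L fell with PANC-1 EV, by 0.84 ± 0.19 and 0.72 ± 0.20 (limma adjusted p = 0.00151 and 0.00676). After PPCL-68 EV they stood at -0.44 ± 0.19 and -0.29 ± 0.20, which did not pass (limma adjusted p = 0.0555 and 0.226).

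Set directly against each other in HPDE, PANC-1 EV gave lower levels than PPCL-68 EV for 6 of the 12 genes, where 24.9% of all genes tested were called lower. These were MT-CYB (-0.70 ± 0.17), MT-ND1 (-0.65 ± 0.16), MT-ATP6 (-0.63 ± 0.16), MT-ND2 (-0.59 ± 0.15), MT-CO1 (-0.41 ± 0.15) and MT-ND3 (-0.33 ± 0.11), with limma adjusted p from 0.00365 to 0.037. The remaining 6, among them MT-ND6 at -0.13 ± 0.14 (limma adjusted p = 0.447), did not pass. This count moved with single libraries, being 4 without PANC-1 EV replicate 3 and 11 without PANC-1 EV replicate 1. How many of all genes were called in those fits is not given here.

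None of the 12 genes passed between residual medium and untreated HPDE, where 20% of all genes tested were called in either direction. At an unadjusted p under 0.05 there was 1, MT-ND4L, at 228, 394 and 274 FPKM untreated and 171, 215 and 199.9 with residual medium (-0.58 ± 0.20, limma adjusted p = 0.0609). The other 11 differences lay between -0.22 and 0.11. A fit by voom on the recovered reads called 1 gene, and its share of all genes called is not given here. Against untreated cells, PANC-1 EV gave 12 of 12 lower (median -1.15; 34.4% of all genes tested called lower), and PPCL-68 EV gave 8 of 12 lower (median -0.69; 36.1% called lower).

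**Figure D4:**
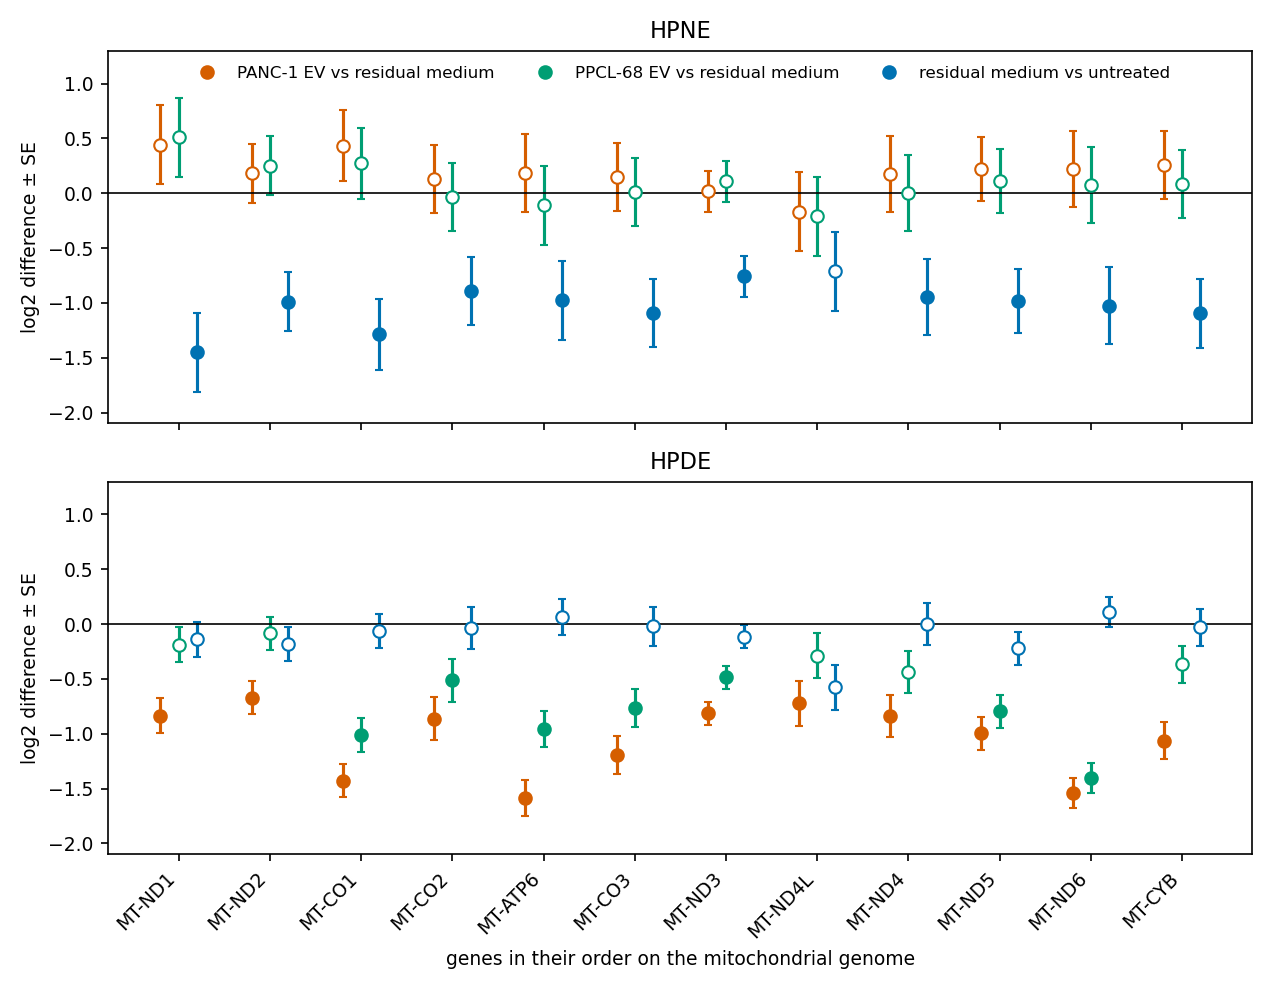
Log2 difference ± SE of each of 12 mitochondrial genes (MT-ATP8 left out) in HPNE (top) and HPDE (bottom) for PANC-1 EV against residual medium, PPCL-68 EV against residual medium, and residual medium against untreated; filled points have limma adjusted p under 0.05 and open points do not. Filled points occur in the vesicle comparisons of HPDE and, in HPNE, in residual medium against untreated.

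HPNE gave another pattern, in which the calls lay between untreated cells and the other groups, with only 2 genes called for PANC-1 EV. With residual medium 11 of the 13 genes tested were lower than in untreated cells, where 25.2% of the 11503 genes tested were called lower. The median was -0.98 over the 13 genes and -0.05 over all genes tested. MT-ND1 was at 1404, 1666 and 589 FPKM untreated and at 447, 391 and 385 with residual medium. Untreated replicate 3 was far below the other untreated libraries and still above all residual libraries. The difference was -1.45 ± 0.36 (limma adjusted p = 0.00911). MT-CO1 went from 5483, 6636 and 2791 FPKM to 2076, 1938 and 1741, also without overlap, a difference of -1.29 ± 0.32 (limma adjusted p = 0.00952).

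MT-ND3 had the tightest residual group in HPNE, at 418, 435 and 440.3 FPKM against 764, 962 and 530.0 untreated. Its groups did not overlap, and the difference was -0.76 ± 0.19 (limma adjusted p = 0.0093). The other 8 genes called fell by 0.89 (MT-CO2) to 1.10 (MT-CYB) on the log2 scale, and 8 of the 13 genes had no overlap between groups, where 31.8% of all genes tested were lower without overlap. MT-ND4L (-0.71 ± 0.36) and MT-ATP8 (-0.66 ± 0.28) did not pass (limma adjusted p = 0.128 and 0.0797).

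These HPNE calls rested on the untreated libraries. Without untreated replicate 1 the residual comparison called 3 genes, and without untreated replicate 3 it called 13. The share of all genes called without a single library is not given here. Without the 4 libraries that stand apart the residual comparison also called all 13 lower, from -1.0 (MT-ND3) to -1.87 (MT-ND1). MT-ATP8 is among them, although it passed the filter through its untreated libraries. Of all genes tested, 71.7% were then called, 36.2% as lower. That fit keeps the closest pair of each group, so its count is not independent support. It also mixes the treatment with the split between the libraries kept. With size factors the median of all genes moved from -0.05 to 0.06 and 7 mitochondrial genes were called lower. The share of all genes called with size factors is not given here, so this count has no background beside it.

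PANC-1 vesicles in HPNE left 2 genes lower than in untreated cells, MT-ND3 (-0.74 ± 0.19, limma adjusted p = 0.0193) and MT-CO3 (-0.94 ± 0.31, limma adjusted p = 0.0491), where 11.5% of all genes tested were called lower. PPCL-68 vesicles left 10 lower (median -0.94), where 23.8% of all genes tested were called lower. Both comparisons share the untreated libraries with the residual comparison. Their counts were 0 and 0 without untreated replicate 1, and 12 and 13 without untreated replicate 3. Again no share of all genes called is given beside these counts. Without the 4 libraries that stand apart the counts were 13 and 13, all lower and with MT-ATP8 among them. Of all genes tested, 62.7 and 69.5% were then called, 33.4 and 38.6% as lower. Those fits mix the treatment with the split between the libraries kept.

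Against residual medium, no mitochondrial gene in HPNE passed with PANC-1 EV (24.2% of all genes tested called) or with PPCL-68 EV (39.9% called). No gene had an unadjusted p under 0.05 by limma in either comparison, and voom called 0 in both. The differences ran from -0.17 to 0.44 after PANC-1 EV and from -0.21 to 0.51 after PPCL-68 EV. PANC-1 EV replicate 1 was the highest library of its group for all 12 genes other than MT-ATP8. For MT-CO1 it stood at 3908 FPKM beside 2029.8 and 2185, and for MT-ATP6 at 1048 beside 498 and 575. The residual libraries of these genes were at 2076, 1938 and 1741, and at 705, 593 and 488.

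Without the 4 libraries that stand apart, each HPNE group held 2 libraries. With PANC-1 EV most differences from residual medium then turned from positive to negative. The 2 kept were the closest to each other in the same data. The SE and p-values of this fit therefore understate the spread between replicates. With all libraries and PANC-1 EV the differences were 0.13 ± 0.31 for MT-CO2, 0.18 ± 0.36 for MT-ATP6 and 0.18 ± 0.35 for MT-ND4, none of which passed (limma adjusted p = 0.774, 0.73 and 0.73). Without the 4 libraries, MT-CO2 was lower than with residual medium by 0.34 ± 0.08 after PANC-1 EV and by 0.31 ± 0.08 after PPCL-68 EV. MT-ATP6 was lower by 0.27 ± 0.11 and 0.41 ± 0.11 (limma adjusted p from 0.00642 to 0.0465 for both genes). MT-ND4 fell by 0.31 ± 0.11 with PANC-1 EV, and MT-ND1 rose by 0.35 ± 0.10 with PPCL-68 EV (limma adjusted p = 0.037 and 0.0139). In these fits 58.9 and 65.5% of all genes tested were called, 30.8 and 37.3% as lower and 28.2% as higher in each. The direct comparison of the vesicles in HPNE called no mitochondrial gene, either with all libraries (5.47% of all genes called, 0 genes at an unadjusted p under 0.05, 0 by voom) or without the 4.

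The difference between the lines was tested as an interaction in 1 fit of all 24 libraries. The effect of PANC-1 EV against residual medium was lower in HPDE than in HPNE for 8 of 12 genes, where 12.5% of the 12377 genes tested were called lower. The largest were MT-CO1 (-1.86 ± 0.37, limma adjusted p = 0.00147), MT-ATP6 (-1.77 ± 0.43, limma adjusted p = 0.00596) and MT-ND6 (-1.76 ± 0.40, limma adjusted p = 0.00395). For PPCL-68 EV only MT-ND6 (-1.49 ± 0.40) and MT-CO1 (-1.29 ± 0.37) of the 12 passed (limma adjusted p = 0.0098 and 0.0156), where 13.6% of all genes tested were called lower. The effect of residual medium against untreated was higher in HPDE for 6 of 12, where 21% of all genes tested were called higher. Without the 4 libraries that stand apart these 3 counts were 8, 4 and 11, but more of all genes were called in the same directions, at 22.8, 19.3 and 30.5%. The last count uses untreated HPNE and mixes the treatment with the split between the libraries kept.

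The make-up of the mitochondrial reads also differed between lines and treatments. The complex IV share of mitochondrial reads ran from 52.9 to 57.1% over the HPNE libraries and from 41.3 to 47.5% over those of HPDE. The 7 complex I genes held 31.7 to 34.6% in HPNE and 42.3 to 49.1% in HPDE. Within HPDE, complex I took 44.1 ± 0.211% untreated and 42.9 ± 0.577% with residual medium, against 47.9 ± 1.26% after PANC-1 EV and 48.7 ± 0.542% after PPCL-68 EV (SD, n = 3). The complex V share was 4.57 ± 0.164, 4.97 ± 0.0891, 3.28 ± 0.0494 and 3.74 ± 0.160% in the same order. The vesicle libraries of HPDE did not overlap the others in either share. These shares use read numbers, in which a longer gene counts for more.

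The ratio of MT-CO1 to MT-CO2 (FPKM over FPKM) was 1.26 to 2.01 in HPNE libraries. In HPDE it was 0.333, 0.326 and 0.335 untreated, 0.336, 0.323 and 0.316 with residual medium, 0.214, 0.204 and 0.241 after PANC-1 EV and 0.214, 0.226 and 0.249 after PPCL-68 EV. The 2 vesicle groups overlapped and lay below the other groups. The ratio of MT-CYB to MT-ND6, neighbours on opposite strands, was 1.53 to 1.93 in HPNE. In HPDE it was 1.87, 2.13 and 2.06 untreated, 1.81, 1.92 and 1.78 with residual medium, 2.77, 2.57 and 2.37 after PANC-1 EV and 4.22, 3.43 and 3.81 after PPCL-68 EV. Here all 3 PPCL-68 libraries lay above all PANC-1 libraries, which lay above the rest. The ratios do not depend on the library total and are given without a test.

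**Figure D5:**
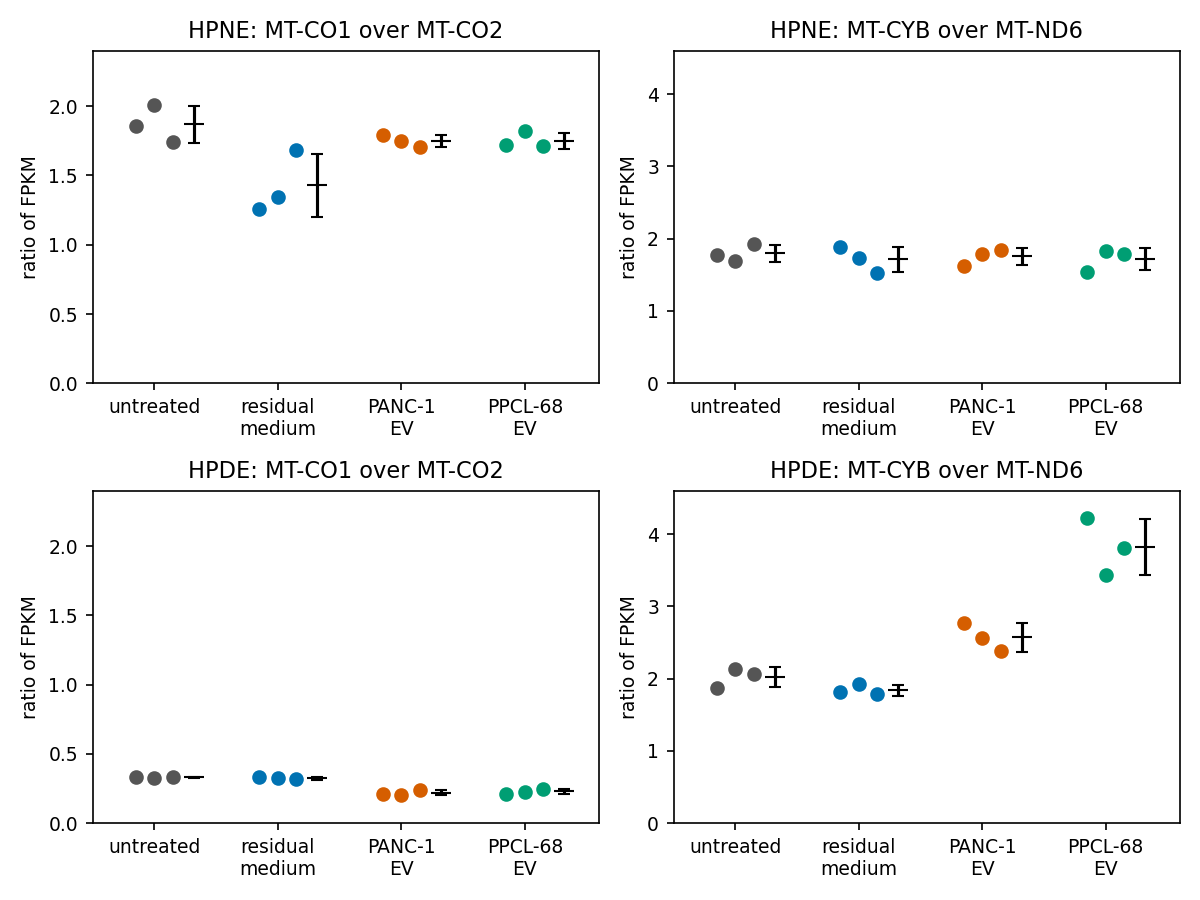
Ratios of FPKM per library, MT-CO1 over MT-CO2 and MT-CYB over MT-ND6, by treatment in HPNE and HPDE. In HPDE the vesicle libraries lie lower in the first ratio and higher in the second, and the PPCL-68 libraries reach 3.43 to 4.22 in the second.

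Nuclear-encoded subunits of the same complexes, listed from general knowledge, gave a frame for these values. In HPDE, 57 of 73 tested subunits fell with PANC-1 EV against residual medium and none rose (median -0.33). With PPCL-68 EV 54 fell and 2 rose (median -0.34). Of all genes tested, 35.1 and 36.4% were called lower, and 28.2% were called higher with PANC-1 EV. The share called higher with PPCL-68 EV is not given here. COX6B1, a complex IV subunit facing the intermembrane space, went from 129 ± 1.23 to 64.0 ± 2.46 FPKM with PANC-1 EV (SD, n = 3; -1.0 ± 0.04, limma adjusted p = 1.69e-10). NDUFB3, an accessory subunit of complex I, fell by 1.04 ± 0.09 and ATP5G1, which encodes the rotating c subunit of ATP synthase, by 0.79 ± 0.08. SDHC of complex II, which has no mitochondrially encoded subunit, fell by 0.44 ± 0.05. Residual medium changed 4 of 73 against untreated HPDE, all upward, where 20% of all genes tested were called in either direction.

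In HPNE with residual medium against untreated, 5 of 72 nuclear subunits rose and 6 fell (median 0.03), beside the median of -0.98 for the mitochondrial genes. Of all genes tested, 25.2% were called lower, and the share called higher is not given here. With vesicles against residual medium, 12 of 72 fell and none rose with PANC-1 EV, and 23 fell and 1 rose with PPCL-68 EV, where no mitochondrial gene passed. Of all genes tested, 24.2 and 39.9% were called in either direction, so the nuclear subunits were called no more often than all genes. Their calls were nearly all lower, with median differences of -0.19 and -0.21 against 0.02 and 0.003 over all genes tested.

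The factors that copy and replicate mitochondrial DNA were measured too. Of 22 such genes tested in HPDE, 3 rose and 11 fell with PANC-1 EV against residual medium, and 3 rose and 15 fell with PPCL-68 EV. Of all genes tested, 28.2% were called higher and 35.1% lower with PANC-1 EV, and 36.4% lower with PPCL-68 EV. The share called higher with PPCL-68 EV is not given, so rises with these vesicles have no background beside them, here and below. POLRMT was at 25.8 ± 2.83 FPKM in the residual group and at 17.3 ± 1.14 and 20.7 ± 0.969 in the PANC-1 and PPCL-68 groups (SD, n = 3), by -0.55 ± 0.07 and -0.31 ± 0.07 (limma adjusted p = 7.18e-06 and 0.00103). TFAM changed by -0.18 ± 0.05 and -0.24 ± 0.05, and POLG, the replicative DNA polymerase, by -0.32 ± 0.05 and -0.28 ± 0.05 (limma adjusted p from 9.19e-05 to 0.00339). DNA2, a nuclease and helicase of DNA replication and repair, fell by 0.64 ± 0.06 and 1.14 ± 0.06. Residual medium against untreated changed 0 of the 22 in HPDE, where 20% of all genes tested were called in either direction.

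Among 27 genes of mitochondrial RNA processing and turnover tested in HPDE, 6 rose and 14 fell with PANC-1 EV, and 3 rose and 17 fell with PPCL-68 EV, beside the same shares of all genes. SLIRP, which with LRPPRC stabilises mitochondrial messages, went from 62.7 ± 5.35 to 30.5 ± 1.84 FPKM with PPCL-68 EV (SD, n = 3; -1.01 ± 0.07, limma adjusted p = 1.68e-08). FASTKD5, which takes part in cutting the precursor at sites without transfer RNAs, fell by 0.89 ± 0.06 with PANC-1 EV. TRNT1, which adds the CCA end to transfer RNAs, rose by 0.80 ± 0.08. Of 74 mitochondrial ribosomal proteins tested in HPDE, 48 fell and 1 rose with PANC-1 EV, and 60 fell and 3 rose with PPCL-68 EV, beside the same 35.1 and 36.4% of all genes called lower. HSPA9, the chaperone that pulls proteins into the matrix, rose in all 4 vesicle comparisons with residual medium, by 0.56 and 0.64 in HPDE and by 0.71 and 1.03 in HPNE.

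In HPNE with residual medium against untreated, 4 of 23 transcription and replication genes rose and 7 fell, where 25.2% of all genes tested were called lower. The falls were thus near the share of all genes, and the share called higher is not given here. Among those that fell were POLRMT by 0.26 ± 0.10 (limma adjusted p = 0.0466) and TOP1MT, the mitochondrial topoisomerase, by 0.88 ± 0.14. TFAM was at 5.24 ± 0.242 FPKM untreated and 6.23 ± 1.33 with residual medium (SD, n = 3; 0.20 ± 0.12, limma adjusted p = 0.197). PPARGC1A, a coactivator of mitochondrial biogenesis, was under the filter and not tested. It stood at 1.37, 1.51 and 1.82 FPKM untreated, 0.0479, 0.0287 and 0.411 with residual medium, 0.711, 0.470 and 0.539 after PANC-1 EV and 0.216, 0.127 and 0.113 after PPCL-68 EV. Untreated HPNE libraries were the highest and did not overlap any other group. In HPDE it had 0 reads in all 12 libraries, against a floor of 3 reads.

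Other features of the RNA differed between some of the same groups. In HPNE the nuclear-retained RNA NEAT1 was at 19.7, 23.0 and 8.53 FPKM untreated and 2.55, 3.21 and 5.55 with residual medium (-1.87 ± 0.36, limma adjusted p = 0.00256). In HPDE it was higher with PANC-1 EV than with residual medium by 0.58 ± 0.11, and with PPCL-68 EV by 0.33 ± 0.11 (limma adjusted p = 0.000451 and 0.02). The summed level of NEAT1 and MALAT1 was 47.8 to 65.3 FPKM in untreated HPNE, 32.8 to 33.6 with residual medium, 20.2 to 35.7 after PANC-1 EV and 25.2 to 94.1 after PPCL-68 EV. In HPDE it was 33.8 to 49.9 untreated, which overlapped both vesicle groups, and 32.8 to 38.9 with residual medium, 42.9 to 103 after PANC-1 EV and 42.1 to 50.5 after PPCL-68 EV. RN7SL1, which has no poly(A) tail, passed in none of the treatment comparisons, at 131 ± 22.5, 135 ± 18.6 and 126 ± 20.1 FPKM in these HPDE groups (SD, n = 3). Of 5 epithelial markers, 4 fell in HPDE with each kind of vesicle, where 35.1 and 36.4% of all genes tested were called lower. The summed level of the 5 was 2394 to 2705 FPKM with residual medium, 1576 to 1767 after PANC-1 EV and 979 to 1038 after PPCL-68 EV. None of the 5 was at 0. The part of these shifts in the mitochondrial differences was not tested.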

How the data were processed

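Strand-unaware RNA-seq libraries from total RNA were analysed as 1 deposited table per library, with an FPKM value for each of 48162 genes per the file headers. Per the submitters' processing notes, CASAVA, STAR, HTSeq, DESeq2 and the build hg19 were used; versions and roles are not given in the sources used here. FPKM times gene length gave whole reads for 100% of values (tolerance 0.01 reads), and library totals were recovered from this. Intervals and the floor of 3 reads cover counting error only.

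Groups came from the sample titles. limma 3.58.1 (R 4.3.3) (lmFit, then eBayes with trend) was fitted to log2(FPKM + 1) of genes whose mean FPKM reached 1. The 12 libraries of a line entered 1 fit (8 residual degrees of freedom), and all 24 entered the fit for differences between lines (16 degrees of freedom). Tests were two-sided, Benjamini-Hochberg adjusted over all genes tested, at 0.05. On this scale the changes of low genes are understated. Alternatives were a pseudocount of 0.1, no filter, size factors, voom on recovered reads, mitochondrial reads left out of the total, a replicate block, only the 6 libraries compared, and leaving out single libraries or the 4 that stand apart. Scripts were tested on simulated data.

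All mitochondrial genes are named. Of each nuclear list, genes with the largest rises and falls among those passing without overlap were named, plus TFAM, POLRMT, POLG and PPARGC1A. The mitochondrial genes were taken by position alone, but they and the nuclear lists were chosen with earlier results of these data known. Replicate numbers were checked as pairs by the correlation of same-numbered deviations from the group means. All 3 pairs exceeded 0.1 in HPNE PANC-1 EV against PPCL-68 EV alone (0.565, 0.292 and 0.500), where the replicate block left the count at 0.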

Additional observations from a re-analysis of the deposited data

Results flagged for a closer look

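Each value here is a difference between the lines (HPDE minus HPNE) in the same treatment effect, which passed as an interaction term in limma with Benjamini-Hochberg adjustment over all genes tested. For PANC-1 EV against residual medium the log2 differences were -1.86 for MT-CO1, -1.77 for MT-ATP6, -1.76 for MT-ND6, -1.34 for MT-CO3, -1.32 for MT-CYB, -1.28 for MT-ND1, -1.22 for MT-ND5 and -0.83 for MT-ND3. For PPCL-68 EV against residual medium they were -1.49 for MT-ND6 and -1.29 for MT-CO1. For residual medium against untreated they had the opposite sign, at 1.31 for MT-ND1, 1.22 for MT-CO1, 1.13 for MT-ND6, 1.07 for MT-CO3, 1.07 for MT-CYB and 0.64 for MT-ND3. All 3 interactions use the same residual libraries, so these values are not independent of each other.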

How the results depend on the processing

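Of 358 counts under the alternatives, 304 stayed within 1.5 times the main count. Apart from the fits without the 4 libraries that stand apart, the share of all genes called under an alternative is not given here. Counts in this section therefore have no background beside them, and a move can come with a move in all genes. Genes called with all libraries kept their direction in 2028 values, of which 1810 stayed called. Genes not called were not followed in this way. In HPNE with PANC-1 EV against residual medium, 12 of the 13 differences were positive with all libraries. Once the 4 libraries that stand apart were left out, most of the 13 were negative. In that fit 3 were called lower (MT-CO2 -0.34, MT-ATP6 -0.27 and MT-ND4 -0.31). The fit keeps only the closest pair of each group, so its p-values understate the spread between replicates. The 12 calls for PANC-1 EV in HPDE against residual medium, and against untreated, were 12 without any single library. The HPNE counts against untreated depended on single untreated libraries.

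With all 4 libraries that stand apart left out, the HPNE counts were 3 for PANC-1 EV and 3 for PPCL-68 EV against residual medium and 13 for PANC-1 EV against untreated. The counts of differences between the lines were then 4 for PPCL-68 EV and 11 for residual medium. Those that use untreated HPNE mix the treatment with the split between the libraries kept. Without the filter on low values, HPNE gave 3 for residual medium, 0 for PANC-1 EV and 0 for PPCL-68 EV against untreated, and the differences between the lines gave 5, 1 and 0 for PANC-1 EV, PPCL-68 EV and residual medium. With only the 6 libraries compared, HPNE gave 7, 0 and 6 against untreated in the same order of groups as above and 1 for PPCL-68 EV against residual medium, and HPDE gave 1 for residual medium against untreated, as did voom. Size factors gave 7 for residual medium and 1 for PANC-1 EV against untreated in HPNE, and a pseudocount of 0.1 gave 1 for the latter. The replicate block, where numbers did not pair the samples (correlations 0.48, -0.443 and 0.49), gave 5 for PANC-1 EV against untreated in HPNE in place of 2, and moved no other count by over 1.5 times.

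Leaving out 1 library gave 3 to 13 for residual medium, 0 to 12 for PANC-1 EV and 0 to 13 for PPCL-68 EV against untreated in HPNE, lowest without untreated replicate 1 and highest without untreated replicate 3. In HPDE it gave 4 to 11 for PANC-1 EV against PPCL-68 EV, 6 to 9 for PPCL-68 EV against residual medium, 7 to 11 for PPCL-68 EV and 0 to 1 for residual medium against untreated. The differences between the lines gave 4 to 11 for PANC-1 EV, 2 to 4 for PPCL-68 EV and 0 to 11 for residual medium, and untreated HPDE against untreated HPNE gave 6 to 9. The causes were not tested. Depth limits MT-ATP8 alone, with at most 17 reads in a library.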
